A study of Homo sapiens with 6 samples.

Results

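The 100 genes described here are the most strongly raised genes of U2OS osteosarcoma cells in which SQLE had been silenced. They were chosen by their own values: counts were scaled by the library total to the usual CPM, genes were kept where mean CPM in the shSQLE libraries was at least 10 and where the lowest shSQLE library lay above the highest shControl library, and the 100 with the highest ratio of mean shSQLE to mean shControl CPM were taken. Of the 19937 genes in the table, 845 met the rule, and the 100 members are the top of that order. The difference between shSQLE and shControl is therefore what made these genes members, so that it is given for them as a description and carries no test.

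U2OS is a human osteosarcoma cell line. The cells were transduced with lentivirus made in HEK293T cells, a packaging line, that carried a short hairpin RNA against SQLE (shSQLE) or a scrambled hairpin (shControl) in the pGIPZ vector, and were then held in 2 μg/mL puromycin to obtain stable populations. Both groups therefore share the vector and the kind of infection and selection, and each holds 3 libraries of poly(A) RNA. They are separate populations, each infected with its own hairpin and then selected. The hairpin of the sequenced cells is not given in the sources used here. The methods speak in general of technical replicates within an independent test, and do not say for the RNA-seq libraries whether they came from separate cultures, so p-values measure only the spread between these libraries, which may be technical.

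SQLE encodes squalene epoxidase, the enzyme that turns squalene into its epoxide and commits it to the sterol ring. Among the members are genes from processes that respond to supply and stress in cultured cells: the serine synthesis pathway, which branches from glycolysis at 3-phosphoglycerate and feeds glycine and folate-bound carbon units, the charging of transfer RNAs with amino acids, and secreted factors such as interleukin 1 alpha and the plasminogen activators, with which mesenchymal cells act on their surroundings. Replication-dependent histone genes, also represented, are small genes whose transcripts mostly end in a stem-loop rather than a poly(A) tail.

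SQLE itself stood at 16.6, 14.6 and 16.5 CPM in shSQLE replicates 1 to 3 and at 95.6, 143 and 150 CPM in shControl replicates 1 to 3, so that the shSQLE mean was 12.3% of the shControl mean. Total counts per library lay between 12212378 and 14393292. The mesenchymal markers VIM and SPARC were at 2773 CPM or more and 375 CPM or more in every library, whereas THY1 was at 0 in all of them and COL1A2 at 0 to 0.417 CPM. The blood markers PTPRC and CD3E were at 0, and the epithelial marker EPCAM was at 3.77 to 5.40 CPM, while the other epithelial markers CDH1, KRT19, ESRP1 and GRHL2 were at 0 to 0.246 CPM. TERT, which U2OS is known to lack because it maintains its telomeres without telomerase, was at 3.67 to 6.41 CPM in the 6 libraries. One control library stood apart: over the tested genes the counts of shControl replicate 1 differed from those of replicates 2 and 3 with a chi-square per degree of freedom of 53.9 and 63.6, against 2.83 between replicates 2 and 3 and 3.39 to 15.8 among the shSQLE libraries.

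The members were modestly raised. Their ratio ran from 1.36 to 2.31 with a median of 1.49. Only 6 members reached 2 and 49 reached 1.5. When the same rule was turned around, 1157 genes were lower in every shSQLE library, and the 100 strongest of those had ratios from 2.42 to 128 with a median of 3.12, so the falls were larger than the rises. Member levels covered a wide range, with mean shSQLE CPM from 10.1 to 3065 and a median of 46.3, and the fewest counts of any member in any library were 56. By gene start and end, 29 of the members overlap another gene with counts, in 9 cases one with more counts than their own. In these bulk libraries, more RNA per cell and more cells that express a gene cannot be told apart.

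Across all genes, edgeR's quasi-likelihood test (all 6 libraries, Benjamini-Hochberg adjusted p under 0.05) tested 12450 genes and called 46 higher (0.369%) and 354 lower (2.84%) in shSQLE. All 100 members were tested and 37 were among those called higher. Every member had its groups apart by the rule, which holds for 8.10% of the tested genes in the upward direction. Because the rule used the same contrast, nothing is read from either count. The median log2 fold change in this fit was 0.62 over the members and -0.01 over all tested genes.

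**Figure D1:**
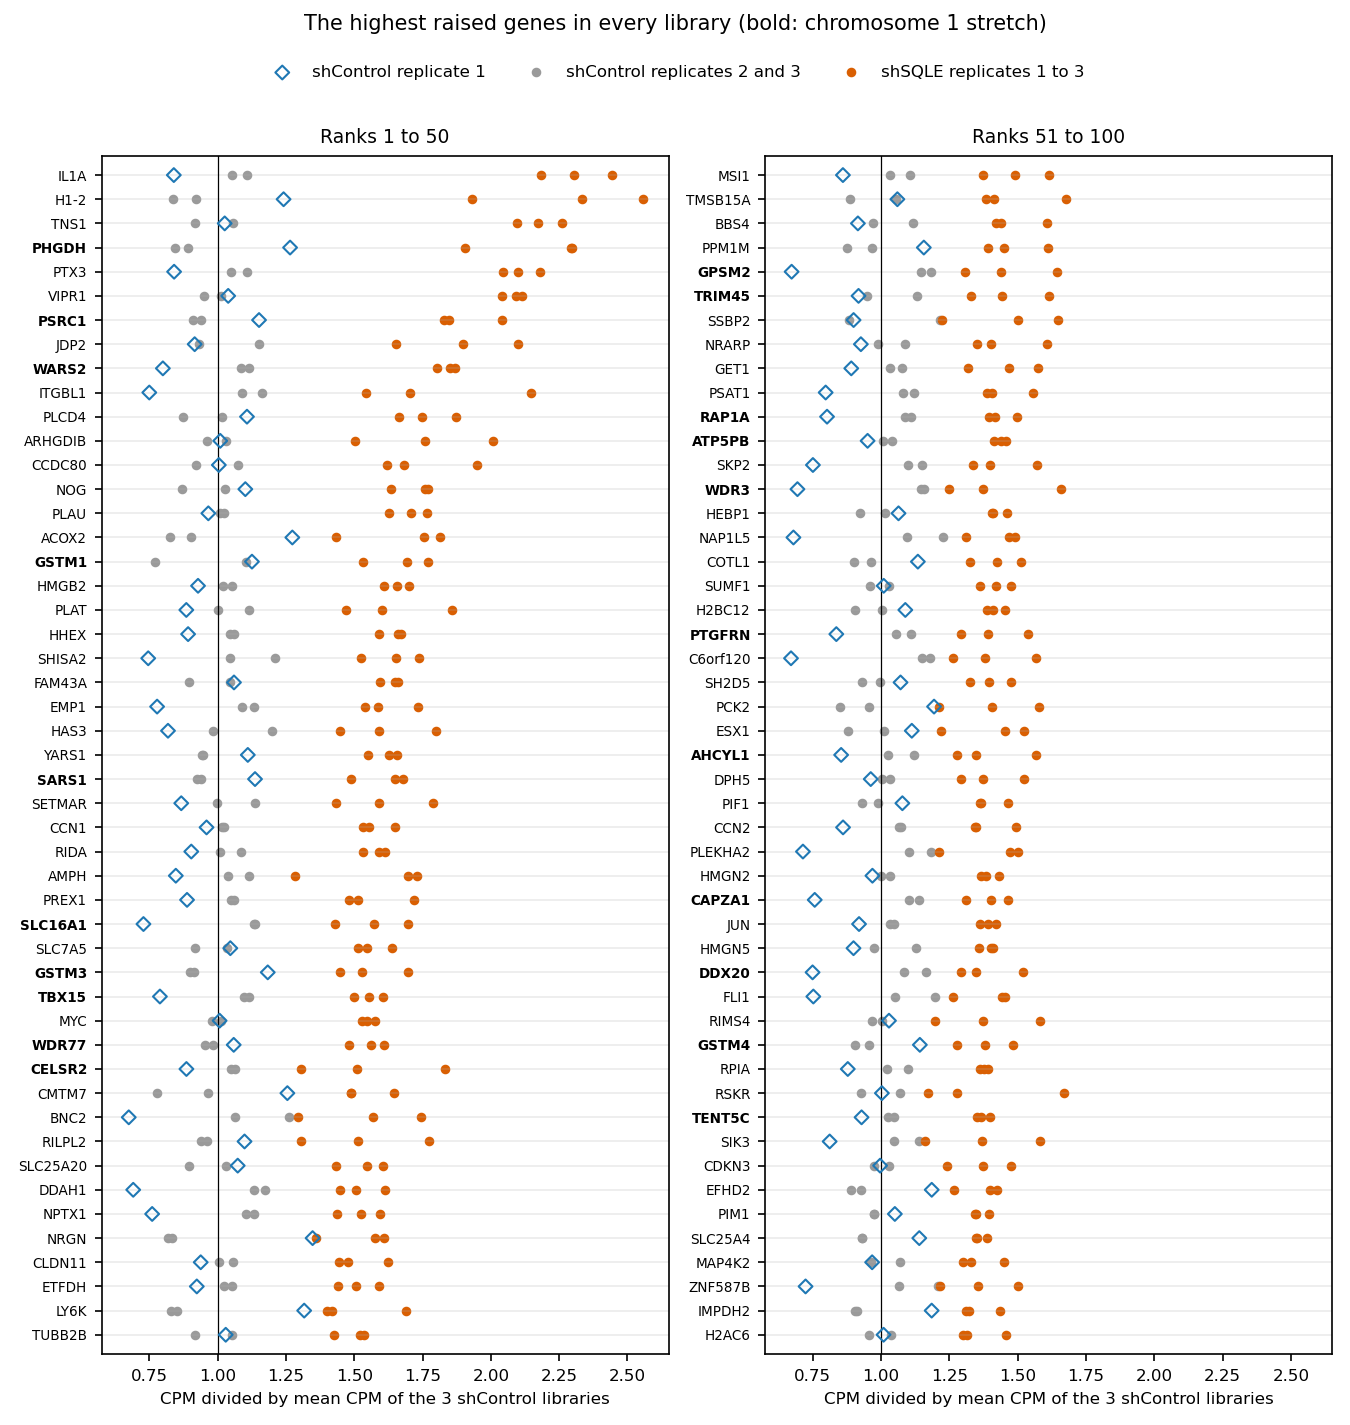
CPM of 98 of the 100 members in every library, divided by the mean CPM of the 3 shControl libraries (x axis), with genes in rank order (y axis). Orange points are the 3 shSQLE libraries, grey points shControl replicates 2 and 3, and open blue diamonds shControl replicate 1. Bold names mark members that lie in a stretch of chromosome 1 from GPSM2 to PHGDH. The orange points lie right of all controls by the rule, and over the 100 members shControl replicate 1 lies outside the range of the other controls in 89.

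Genes for secreted ligands, matrix components and proteases were the role group with the highest median ratio, 1.70 over 11 members (roles were assigned by hand after the members were known). IL1A, the alarmin cytokine interleukin 1 alpha (chr2:112773925-112784493 in hg38, minus strand), ranked the highest of all. It was at 146, 131 and 138 CPM in the shSQLE libraries and at 50.2, 62.9 and 66.1 CPM in the shControl libraries, a ratio of 2.31. The groups were well apart, with the lowest shSQLE value 1.97 times the highest shControl value. PTX3, a long pentraxin that is built into hyaluronan-rich matrix, was at 139, 134 and 131 CPM against 53.6, 67.0 and 70.7 CPM. Its gene span overlaps that of VEPH1 on the opposite strand, and reads from any shared sequence cannot be told apart if counting ignored strand. HAS3, a hyaluronan synthase, was far lower, at 11.2, 12.3 and 13.9 CPM against 6.31, 9.24 and 7.56 CPM.

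Both plasminogen activators were members. PLAU, the urokinase gene, was abundant at 489, 531 and 513 CPM against 290, 308 and 303 CPM, and PLAT, the tissue-type activator, was at 34.2, 29.4 and 27.0 CPM against 16.3, 20.5 and 18.4 CPM. The matricellular genes CCN1 and CCN2, which are well-known targets of the coactivators YAP and TAZ, stood at similar levels. CCN1 was at 313, 333 and 309 CPM against 193, 206 and 205 CPM, a ratio of 1.58, and CCN2 at 303, 303 and 336 CPM against 194, 241 and 240 CPM, a ratio of 1.40. ITGBL1, a secreted integrin-like protein, had its highest value in shSQLE replicate 3 (38.7 CPM, against 27.8 and 30.7) and its lowest in shControl replicate 1 (13.5 CPM, against 19.6 and 20.9). CCDC80, a matrix protein, the BMP antagonist NOG and the pentraxin NPTX1 completed the group, with ratios from 1.52 to 1.75.

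Lists of genes for secreted products were set beside these members. The lists of extracellular matrix genes and their ligands and of cytokines and chemokines held no member. In the former 0 of 42 tested genes were called higher and 13 lower, with 2 apart upward, 22 downward and a median log2 fold change of -0.50. In the latter 0 of 24 were called higher and 7 lower, with 3 apart upward, 13 downward and a median of -0.36. In the interleukin 1 family IL1A was the single gene called higher of 13, with 1 lower. In that family 1 gene was apart upward and 7 downward, with a median of -0.28. Proteases and their inhibitors had 3 called higher and 10 lower of 66, with 8 apart upward and 23 downward. The corresponding shares over all tested genes were 0.369% higher and 2.84% lower, with 8.10% apart upward and 13.7% downward. In the list of YAP and TAZ targets, CCN1 and CCN2 were called higher and 2 others lower of 28 genes, with a list median log2 fold change of 0.08. The hyaluronan list had 1 gene called higher, PTX3, and 2 called lower of 11.

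The upstream sequences of 2 of these genes are shown as examples of motifs for factors named in the text. Of such factors, JUN and JDP2 are members, and no YAP, TAZ or TEAD gene is. The sequences were taken from RefSeq promoters (GRCh38.p14), which were present for 76 of the 100 members. The 22 bases just before the IL1A start (chr2:112784494-112784515, minus strand) carry an AP-1 motif (TGANTCA on either strand, in capitals), the element bound by the JUN and FOS families. The 100 bases of CCN2 that end 80 bases before its start (chr6:131951452-131951551, minus strand) carry the TEAD motif (GGAATG on either strand, in capitals) 3 times; TEAD factors are the DNA-binding partners of YAP and TAZ.
IL1A: cgaagaagacTGACTCAggctt
CCN2: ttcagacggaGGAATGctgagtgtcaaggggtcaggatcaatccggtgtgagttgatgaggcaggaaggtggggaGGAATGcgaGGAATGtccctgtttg

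Over the 250 bases before the start, AP-1 letters were found in 2.63% of members and 3.79% of all tested genes with a promoter entry, and TEAD letters in 7.89% and 9.20%. An E-box (CACGTG), the element bound by MYC among others, was found in 9.21% of members and 9.05% of tested genes. The composite element bound by ATF4 (TGATGNAAN on either strand) was found in 3.95% and 1.34%, that is in 3 members. Those 3 are RILPL2, CAPZA1 and HMGN5, and none of them is an amino acid or tRNA charging gene. These shares describe letters in a short window and not binding.

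Amino acid and tRNA charging genes formed a group of 8 with a median ratio of 1.59. The group was drawn by hand, and AHCYL1 and DPH5 belong to it only loosely. PHGDH, which catalyses the committed step of serine synthesis (chr1:119648411-119744218, plus strand), was the most abundant of all members. It was at 3251, 3249 and 2696 CPM against 1792, 1263 and 1193 CPM, a ratio of 2.16. Here shControl replicate 1 was the highest control and shSQLE replicate 3 the lowest of its group, and the groups stayed apart. PSAT1, the transaminase of the following step, was at 557, 497 and 503 CPM against 286, 387 and 402 CPM, with shControl replicate 1 the lowest control this time. Its ratio was 1.45 with all controls and 1.32 without shControl replicate 1, where it fell from rank 60 to 535.

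Among tRNA synthetases, WARS2, the mitochondrial enzyme for tryptophan, was at 172 ± 3.25 against 93.3 ± 16.2 CPM. The cytosolic enzymes YARS1 for tyrosine and SARS1 for serine were at 253 ± 8.44 against 157 ± 15.0 CPM and at 454 ± 29.0 against 283 ± 33.6 CPM (mean ± SD, n = 3 each). SLC7A5, the light chain of the exchanger that imports large neutral amino acids, was at 398, 375 and 367 CPM against 254, 251 and 223 CPM. AHCYL1, a relative of S-adenosylhomocysteine hydrolase, and DPH5, which takes part in making diphthamide on elongation factor 2, had ratios close to 1.40. In the serine, glycine and folate list, PHGDH alone of 23 tested genes was called higher and 0 lower, while 9 had their groups apart upward and 2 downward, and the list median was 0.15 (0.09 without shControl replicate 1). Over all tested genes 0.369% were called higher, 8.10% had their groups apart upward and 13.7% downward. In the list of ATF4 and stress-response genes, 3 of 34 were called higher (JDP2, SARS1 and SLC7A5) and 3 lower, with 8 apart upward and 9 downward and a median of 0.03.

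Chromatin proteins gave 8 members. H1-2, a linker histone gene with a single exon (chr6:26055740-26056470, minus strand), was at 48.1, 52.8 and 39.9 CPM against 25.6, 19.0 and 17.3 CPM, the next highest ratio after IL1A at 2.27. The core histone genes H2BC12 and H2AC6 lay at the other end of the order with ratios of 1.42 and 1.36. H2BC12 was at 89.2, 92.1 and 87.9 CPM against 68.9, 57.4 and 63.6 CPM. The libraries were selected for poly(A), and transcripts of replication-dependent histone genes mostly lack that tail. Their counts may therefore not follow total histone RNA. With a trend on GC content and transcript length removed and shControl replicate 1 left out, the log2 fold change of H2AC6 went from 0.48 to 0.17 and that of H2BC12 from 0.54 to 0.29, and with the trend alone removed neither was called by edgeR (adjusted p = 0.165 and 0.0539). The members' 3 histone genes lie in the histone cluster of chromosome 6, where H2BC9 and H2BC11, below the level limit, also had their groups apart. HMGB2, a DNA-bending protein, was at 346 ± 9.68 against 209 ± 13.4 CPM (mean ± SD, n = 3 each), and the nucleosome-binding genes HMGN2 and HMGN5 both had a ratio of 1.39. Of 29 tested histone genes, 1 was called higher and 0 lower, 10 had groups apart upward and 2 downward, and the median log2 fold change was 0.19 (0.34 without shControl replicate 1), beside 0.369% called higher and 8.10% apart upward over all tested genes. SETMAR, a fusion of a methyltransferase and a transposase domain, lies within the span of the member SUMF1 on the opposite strand. Whether they share counted sequence was not examined, so they may not be 2 separate observations if counting ignored strand.

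The TATA box (TATAAA on either strand) was found in 9.21% of members and 5.11% of tested genes. Both core histone genes and CCN2 hold it shortly before the start, at 27, 31 and 32 bases in H2BC12, H2AC6 and CCN2, which is why these sequences are shown. They lie at chr6:27146870-27146895 (H2BC12, minus strand), chr6:26124131-26124156 (H2AC6, plus strand) and chr6:131951389-131951414 (CCN2, minus strand), with the motif in capitals.
H2BC12: agaggtcctaTATAAAaacgactcct
H2AC6: aggaactaccTATAAAagcggccatg
CCN2: gcccggagcgTATAAAagcctcgggc

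Among 11 transcription factors and cofactors, JDP2, an AP-1 family repressor, had the highest ratio, 1.88, at 16.1, 14.6 and 12.7 CPM against 7.04, 7.16 and 8.86 CPM. HHEX, a homeobox repressor, was at 164, 157 and 163 CPM against 87.8, 104 and 103 CPM. MYC had the tightest groups of this set, at 41.5, 42.3 and 41.0 CPM against 27.0, 27.2 and 26.3 CPM, with shControl replicate 1 between the other controls. JUN, a core AP-1 subunit, was at 297, 291 and 285 CPM against 192, 219 and 216 CPM, a ratio of 1.39. In the AP-1 and immediate early list JUN was the 1 gene called higher of 36, beside 5 called lower, and 5 had their groups apart upward and 13 downward, against 8.10% and 13.7% of all tested genes. BNC2, a zinc finger protein, was at 15.5 ± 2.29 against 10.1 ± 3.01 CPM (mean ± SD, n = 3 each), with the groups barely apart. TBX15, FLI1, ESX1, SSBP2, NRARP and ZNF587B made up the rest, with ratios from 1.36 to 1.55.

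Metabolic enzymes and carriers gave 11 members and the glutathione transferases 3 more. ACOX2, a peroxisomal oxidase of branched chains and bile acid precursors, was at 17.7, 18.3 and 14.5 CPM against 12.9, 9.10 and 8.33 CPM. SLC16A1, the lactate and pyruvate transporter MCT1, was at 521, 474 and 562 CPM against 241, 376 and 377 CPM. SLC25A20, the mitochondrial carnitine carrier, ETFDH, which passes electrons from fatty acid oxidation to ubiquinone, and SLC25A4, an ADP and ATP carrier, had ratios of 1.53, 1.51 and 1.36. PCK2, the mitochondrial phosphoenolpyruvate carboxykinase, was at 73.5, 65.5 and 56.5 CPM against 55.6, 44.5 and 39.6 CPM, so that its lowest shSQLE value almost met the highest control. IMPDH2, the rate-limiting enzyme of guanine nucleotide synthesis, ranked at the edge of the list. GSTM1, GSTM3 and GSTM4, neighbouring genes for enzymes that join glutathione to reactive compounds, had ratios of 1.67, 1.56 and 1.38. Their sequences are close to each other, so reads may have been split among them and the values of single genes are uncertain.

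The remaining members were spread over signalling, the cytoskeleton and membranes, the cell cycle and RNA handling. VIPR1, a receptor for vasoactive intestinal peptide, was at 51.8, 53.1 and 53.6 CPM against 26.4, 24.1 and 25.7 CPM, with tight groups far apart. TNS1, the focal adhesion adaptor tensin 1, was at 16.8, 16.1 and 15.6 CPM against 7.62, 7.85 and 6.80 CPM. PSRC1, a spindle protein that binds microtubules, was at 172, 190 and 171 CPM against 108, 84.8 and 87.7 CPM. EMP1, an epithelial membrane protein, was at 534, 518 and 584 CPM against 262, 367 and 381 CPM. The phospholipase PLCD4, the GDP dissociation inhibitor ARHGDIB, SHISA2 and FAM43A were other members of the upper ranks, with ratios from 1.63 to 1.76. The cell cycle group held PSRC1 and GPSM2, which orient and build the spindle, TUBB2B, SKP2, which marks the inhibitor p27 for degradation, PIF1, CDKN3 and PIM1. No gene of the lists for DNA replication (48 tested) or mitosis (46 tested) was a member, and 0 and 1 of them were called higher. Of the replication genes 10 had their groups apart upward and 1 downward, with a median log2 fold change of 0.10, and of the mitosis genes 12 and 1, with a median of 0.18, beside 8.10% apart upward over all tested genes and a median of -0.01. Of 41 gene lists, 23 held no member, and 28 members were in any list.

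Further signalling members were the RAC exchange factor PREX1, at 238, 233 and 271 CPM against 140, 166 and 167 CPM, the kinases MAP4K2, SIK3 and RSKR, the phosphatase PPM1M, and SH2D5, CMTM7, RILPL2 and RIMS4. Their ratios ran from 1.36 to 1.57. RSKR overlaps several genes on its own strand and had its highest shSQLE value, 13.8 CPM, in replicate 3 against 10.5 and 9.65 CPM in the others. Of the cytoskeletal and membrane members, the actin-binding COTL1 was at 369, 392 and 344 CPM against 294, 250 and 234 CPM, and CLDN11, a tight junction protein, at 216, 243 and 221 CPM against 140, 158 and 151 CPM. Values of CLDN11 kept the groups well apart, while in COTL1 shControl replicate 1 came closest to the shSQLE libraries. EFHD2, TMSB15A, AMPH, BBS4, GET1 and PLEKHA2 were the others of that kind outside the stretch of chromosome 1 described next, with ratios from 1.36 to 1.57. Among the metabolic genes, RIDA, which removes reactive imines, was at 21.1, 21.9 and 22.2 CPM against 12.4, 13.9 and 15.0 CPM, and RPIA of the pentose phosphate pathway at 73.6 ± 0.737 against 53.4 ± 5.97 CPM (mean ± SD, n = 3 each). The RNA-binding MSI1, the histone chaperone relative NAP1L5, the haem-binding HEBP1 and SUMF1, which activates sulfatases, had ratios from 1.42 to 1.49.

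**Figure D2:**
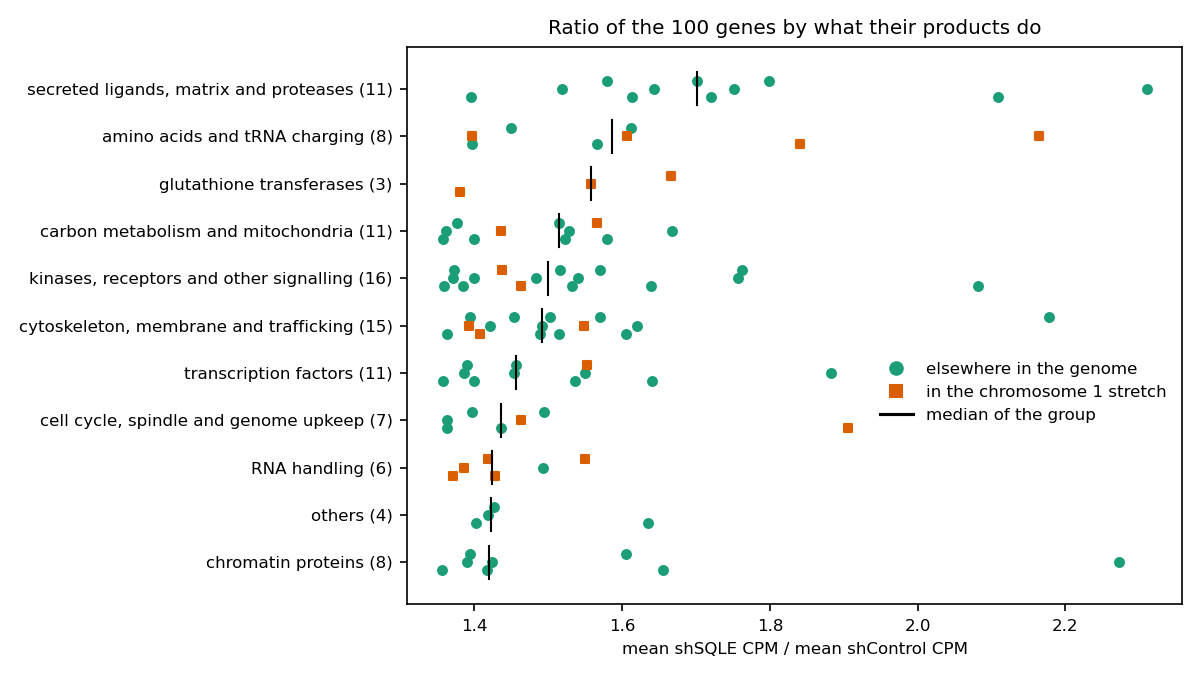
Ratio of mean shSQLE to mean shControl CPM (x axis) of each member, by role group with the number of members in brackets (y axis). Green circles are members elsewhere in the genome, orange squares the members in the chromosome 1 stretch, and black bars the group medians. The group of secreted ligands, matrix and proteases has the highest median, 1.70, with no orange square. Of the RNA handling genes 5 of the 6 are orange, as are all 3 glutathione transferases.

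The members were not spread evenly over the genome. Chromosome 1 held 30 of the 100 members but 10.2% of the tested genes, and chromosome 3 held 12 members against 5.86%. On chromosome 1, 22 members lay between GPSM2 and PHGDH on the short arm (chr1:108875350-119744218 in hg38), a stretch of 10.9 Mb. It contained 81 tested genes, 0.651% of all of them, and 27.2% of these were members. In order along the chromosome they included GPSM2, SARS1, CELSR2, PSRC1, GSTM4, GSTM1, GSTM3, AHCYL1, WDR77, ATP5PB, RAP1A, DDX20, CAPZA1, SLC16A1, PTGFRN, TRIM45, TENT5C, WDR3, TBX15, WARS2 and PHGDH. When the genome was divided into windows of 5 Mb, 485 windows had at least 8 tested genes. The 3 windows that cover the stretch held 8, 7 and 7 members, whereas no other window held more than 3 and 417 held none.

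Genes of the stretch that were not members were higher too. Of 59 such genes, 55 had a log2 fold change above 0 and 4 below, and 25 (42.4%) had every shSQLE library above every shControl library, against 8.10% of all tested genes. Their median log2 fold change was 0.37, with quartiles of 0.23 and 0.44, while the median over all other genes outside the stretch was -0.01. The members inside had a median of 0.59, and the members elsewhere 0.62. The single edgeR call among the 59 was BCAS2, which also ranked just below the list. The 3 windows had the highest medians of all 485, from 0.38 to 0.44, and the next highest window had 0.23. Since the limits of the stretch were drawn from the members, these values are a description.

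Over the 20 tested genes before GPSM2 the median was 0.12, and 3 had their groups apart upward: the member DPH5 and S1PR1, several megabases away, and the third HENMT1, with 3 tested genes between it and GPSM2. The 20 genes after PHGDH, which begin with NOTCH2 at a log2 fold change of 0.02, had a median of -0.02 with 1 apart. Library by library, the median deviation of the 59 other genes from their own mean over the 6 libraries was 0.16, 0.12 and 0.23 in shSQLE replicates 1 to 3 and -0.36, -0.11 and -0.04 in shControl replicates 1 to 3, on the log2 scale. The shSQLE libraries were thus all above the controls, and shControl replicate 1 was well below the other two. Without shControl replicate 1 the median log2 fold change of the 59 genes was 0.28, while that of the 20 genes before the stretch went to -0.05. After a smooth trend on GC content and transcript length had been removed, an adjustment added after seeing the data, the library medians of the 59 genes were 0.21, 0.22 and 0.25 in shSQLE and -0.22, -0.20 and -0.19 in shControl, and the median log2 fold change was 0.45 with all controls and 0.44 without shControl replicate 1, against 0.06 over all tested genes in both. With this adjustment the 20 genes before the stretch had a median of 0.21 with 5 called higher, and 0.10 with 7 called when shControl replicate 1 was left out as well, and the 20 genes after it had 0.03 with 0 called and 0.08 with 2. The adjusted libraries of each group lay close together. Why the genes of this stretch were higher was not tested.

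**Figure D3:**
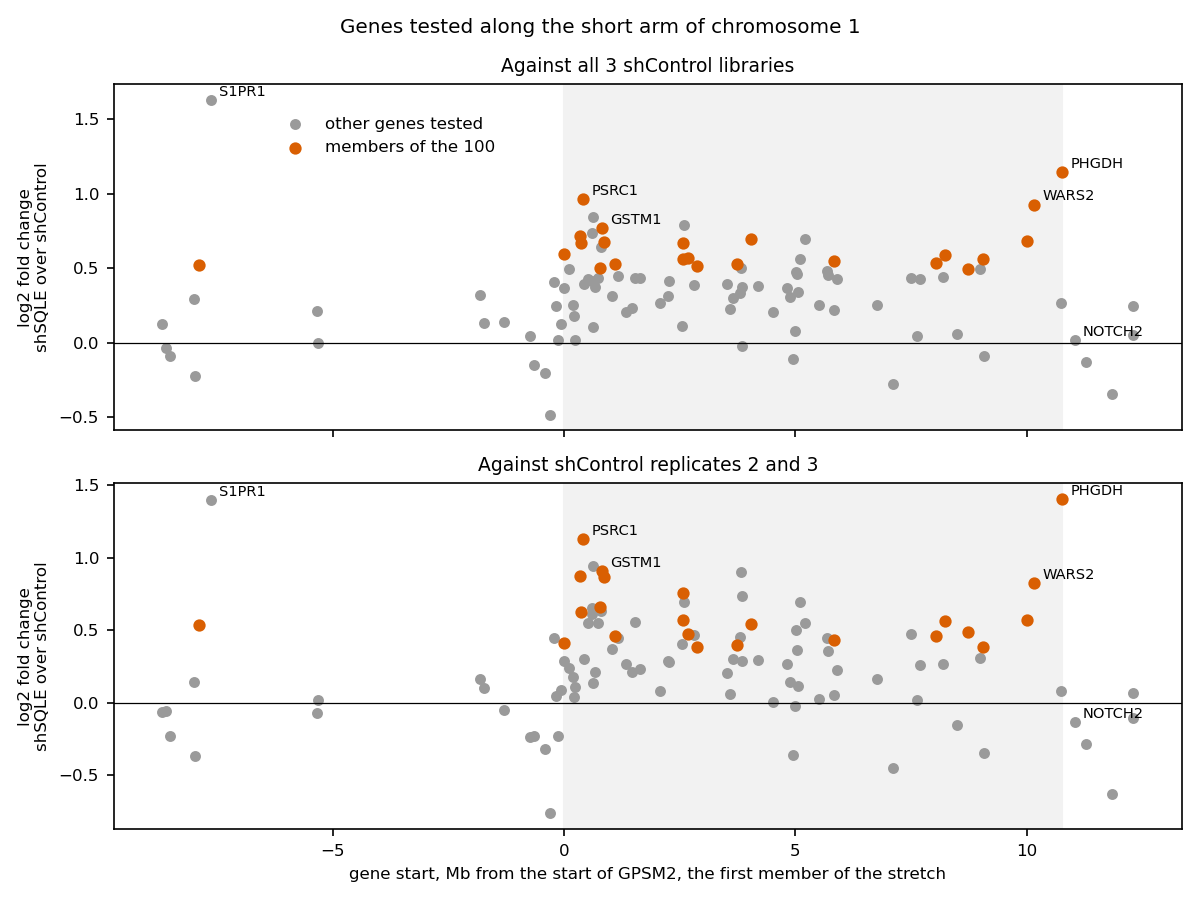
Log2 fold change of shSQLE over shControl (y axis) for the tested genes on the short arm of chromosome 1, by distance of the gene start from the start of GPSM2 in Mb (x axis). The upper panel uses all controls and the lower one shControl replicates 2 and 3. Orange points are members, grey points other tested genes, and shading marks the stretch, in which 77 of 81 genes lie above 0 in the upper panel.

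The position cut across the roles. All 3 glutathione transferases and 5 of 6 RNA handling genes (WDR77, WDR3, DDX20 and TENT5C among them) lay in the stretch. So did 4 of the 8 members of the amino acid and tRNA charging group (PHGDH, WARS2, SARS1 and the loosely placed AHCYL1). None of the 11 members of the group of secreted ligands, matrix and proteases lay there, and none of the 8 chromatin proteins. Of the other amino acid genes, PSAT1 and SLC7A5 lie on other chromosomes. Of the 22 members of the stretch, 17 had ratios from 1.37 to under 1.6. PHGDH at 2.16, PSRC1 at 1.91, WARS2 at 1.84, GSTM1 at 1.67 and SARS1 at 1.61 were above. The cut of the list sets the lower end of that range, and over the whole list every member from rank 29 on was under 1.6. The levels of the members in the stretch ranged widely. ATP5PB, a subunit of the mitochondrial ATP synthase, was at 818, 844 and 833 CPM against 551, 584 and 603 CPM, with all libraries close to their group. CAPZA1, which caps actin filaments, was at 799, 748 and 836 CPM against 432, 629 and 650 CPM. TENT5C, a poly(A) polymerase, was low, at 14.4, 14.3 and 14.8 CPM against 9.83, 10.8 and 11.1 CPM, and its groups were apart all the same. WDR77, a partner of the arginine methyltransferase PRMT5, was at 228 ± 9.52 against 147 ± 7.83 CPM (mean ± SD, n = 3 each). WDR77 and ATP5PB overlap each other on opposite strands. Outside the stretch, the chromosome 6 histone genes and a group of 3 on the short arm of chromosome 12 (ARHGDIB, EMP1 and HEBP1) were the only windows with 3 members.

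Membership depended strongly on shControl replicate 1. Leaving out a control library can only loosen the rule, so all 100 members meet it without shControl replicate 1 by construction. In that setting 2399 genes met it in place of 845, and only 43 members stayed among the highest 100. When any other library was left out, 78 to 87 members stayed. The core that stayed whichever single library was left out held 34 members, including IL1A, H1-2, TNS1, PHGDH, PTX3, VIPR1, PSRC1, JDP2, WARS2, PLAU, MYC, CCN1 and SLC7A5. By rank, 22 of the members at ranks 1 to 25 stayed without shControl replicate 1 (SHISA2, EMP1 and HAS3 did not). The same held for 15 of ranks 26 to 50, 4 of ranks 51 to 75 and 2 of ranks 76 to 100. Members near the cut leave an ordered list first, and this breakdown was not made for the other libraries. Without that library edgeR called 1964 of 12570 genes higher (15.6%) and 99 of the 100 members, all but ZNF587B. Over 12447 tested genes, the log2 ratio of shSQLE to shControl replicates 2 and 3 had a Spearman rho of 0.42 with GC content, as a description in which all points share these libraries.

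shControl replicate 1 moved members both ways. It was the lowest control in 54 members, the highest in 35 and between the others in 11, and 12, 26 and 5 of these stayed without it. The median ratio of the members was 1.62 against shControl replicate 1 alone, 1.46 against replicate 2 alone and 1.48 against replicate 3 alone. Members for which it was lowest by the widest margin were C6orf120, GPSM2, BNC2, NAP1L5, DDAH1 and WDR3, with log2 ratios of replicates 2 and 3 over replicate 1 from 0.73 to 0.80. GPSM2, for instance, was at 71.4, 64.9 and 81.7 CPM in shSQLE against 33.4, 56.9 and 58.7 CPM, and its ratio went from 1.46 to 1.26 without replicate 1. C6orf120 went from 1.40 to 1.20 and from rank 72 to 1276.

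At the other end were, among others, NRGN, LY6K, ACOX2, PHGDH and CMTM7, in which shControl replicate 1 was the highest control and the log2 ratio ran from -0.71 to -0.53. NRGN, the calmodulin-binding protein neurogranin, was at 63.3, 62.0 and 53.4 CPM in shSQLE and at 32.8 and 32.2 CPM in shControl replicates 2 and 3, and shControl replicate 1 came just under the lowest of the shSQLE values. Its ratio went from 1.52 to 1.83 and its rank from 46 to 13. LY6K, a GPI-anchored protein, was at 391, 472 and 397 CPM against 368, 232 and 238 CPM and reached a ratio of 1.79 without replicate 1. In 16 members, NRGN among them, the lowest shSQLE value was under 1.1 times the highest shControl value, and in 15 it was at least 1.5 times as high.

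**Figure D4:**
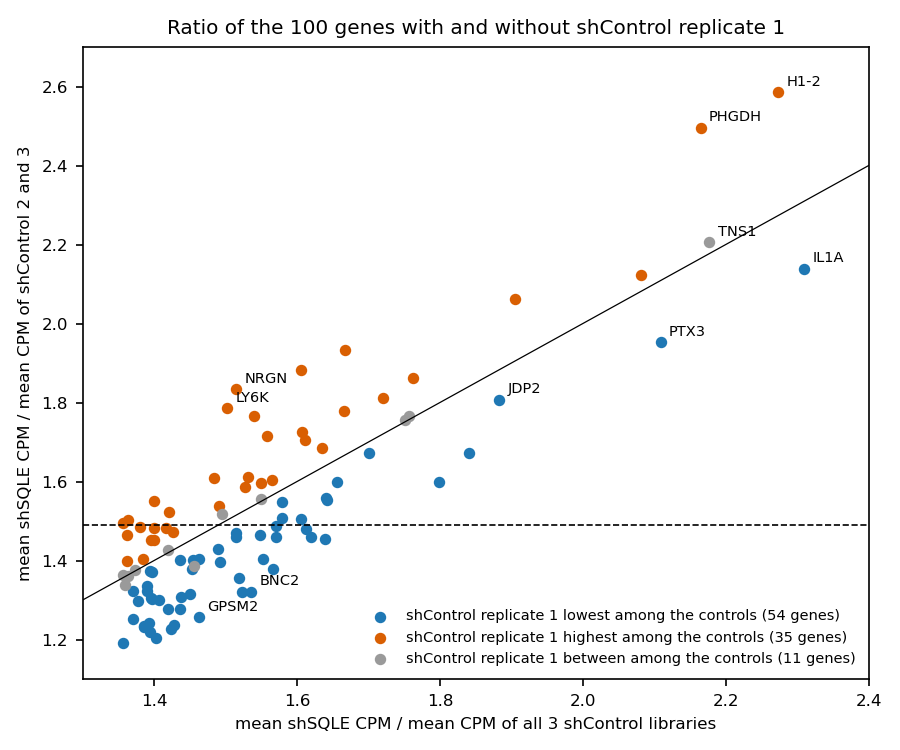
Ratio of mean shSQLE CPM to the mean of shControl replicates 2 and 3 (y axis) against the ratio to all 3 controls (x axis) for the 100 members. Blue points have shControl replicate 1 as the lowest control, orange points as the highest and grey points between. The solid line marks equal ratios, and the dashed line the ratio of 1.49 at rank 100 without shControl replicate 1, above which 43 members lie.

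The direction of the shift followed GC content. Members with shControl replicate 1 lowest had a median transcript GC content of 45.0% and a median length of 3241 bases, and those with it highest 56.4% and 2179 bases. Over 12447 tested genes with sequence data, the log2 difference between replicates 2 and 3 and replicate 1 had a Spearman rho of -0.74 with GC content, and over the members -0.59, as a description in which all points share the same libraries. Genes under 40% GC were higher in replicates 2 and 3 by a median log2 difference of 0.59, and genes of 60% or more were lower, at -0.56. Within the members, shSQLE replicate 3 tended to differ from its group where shControl replicate 1 did, in the opposite direction. A trend of the differences among the shSQLE libraries with GC content was not examined. Of the 54 members with shControl replicate 1 lowest, shSQLE replicate 3 was the highest of its group in 31, and of the 35 with it highest, shSQLE replicate 3 was the lowest in 23. As a whole the members differed little from other genes in GC content, with a median of 50.5% against 48.4%, and were shorter, with a median of 2681 against 3433 bases and 8 against 9 exons. When CPM were adjusted for GC content and length, 78 members stayed, and 25 genes of the adjusted list lay in the chromosome 1 stretch. With shControl replicate 1 left out as well, 58 members stayed. The adjustment was fitted in each library without regard to group. It can therefore also remove a difference between the groups that follows GC content or length, and the part of the trend in membership was not tested.

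**Figure D5:**
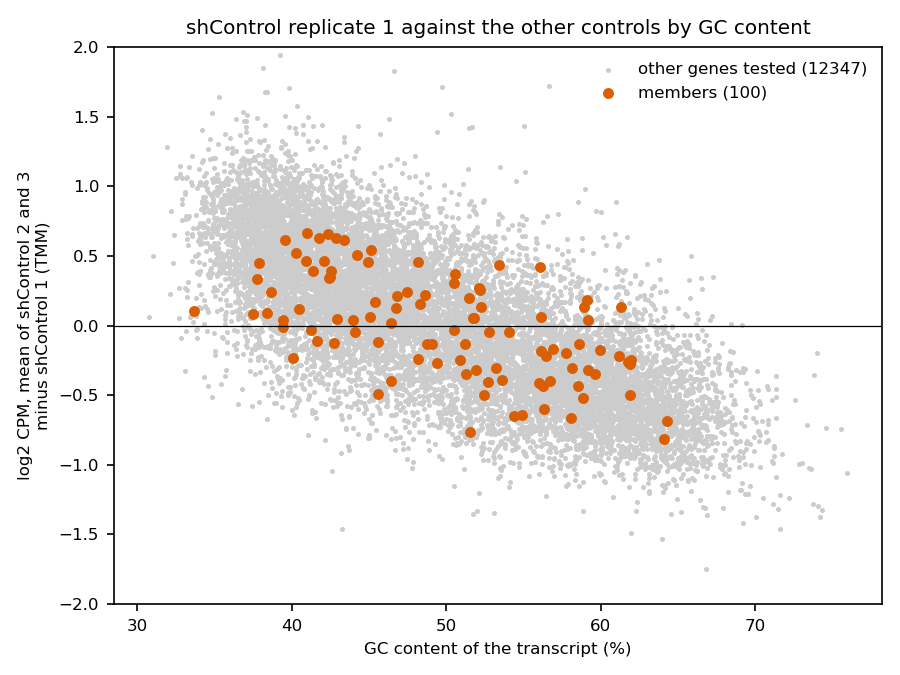
Log2 CPM (TMM) of shControl replicates 2 and 3 minus that of shControl replicate 1 (y axis) against GC content of the transcript (x axis). Grey points are tested genes and orange points the 100 members, and 1 gene lies outside the plotted range. Both clouds fall from upper left to lower right, with rho of -0.74 over the tested genes and -0.59 over the members.

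In the chromosome 1 stretch, shControl replicate 1 was the members' lowest control in 15 of 22 and the highest in 7. Their median ratio was 1.70 against replicate 1 alone, and 1.39 and 1.40 against replicates 2 and 3. Without replicate 1, 7 of 22 stayed among the highest 100, compared with 36 of the 78 members elsewhere; this difference was not tested.

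The 57 genes that took the places of members when shControl replicate 1 was left out all failed the rule with it, because its CPM reached into the shSQLE range. FAHD2B was at 15.3, 14.9 and 11.8 CPM against 12.6, 6.88 and 6.42 CPM. HMOX1, the haem oxygenase induced by oxidative stress, was at 20.8, 15.1 and 13.6 CPM against 15.2, 9.80 and 7.64 CPM. RHOC, a small GTPase of the cytoskeleton that lies in the chromosome 1 stretch, was at 339, 346 and 269 CPM against 324, 189 and 173 CPM. UQCC3 and PGF, the placental growth factor, followed with ratios of 1.74 and 1.68 to replicates 2 and 3. These genes were GC-rich and short, with a median GC content of 62.0% and a median length of 1250 bases.

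At the edge of the list the ratios hardly differed. IMPDH2 at rank 99 and H2AC6 at rank 100 had a ratio of 1.36, and BCAS2 and SOX7, next in order, had 1.35. H2AC6 was at 23.8, 21.4 and 21.2 CPM against 16.5, 16.9 and 15.6 CPM, and BCAS2, a splicing factor of the chromosome 1 stretch, at 164, 156 and 162 CPM against 106, 121 and 128 CPM. The end of the list is thus a cut in a continuous order.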

How the data were processed

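RNA was extracted with Trizol, selected for poly(A), made into TruSeq libraries and sequenced as 151 base paired reads. The authors' processing notes name fastp 0.20.0, STAR 2.7.9a and featureCounts 2.0 with hg38, and the deposited table holds raw counts per gene for 6 libraries. The strand setting of the counting was not given in the sources used here. Of 19937 genes, 19905 were matched to a symbol and 19859 to GENCODE v44, which gave positions, transcript length and GC content.

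CPM were counts over the column total. The members were the 100 highest by the rule, and the members, the gene lists and the tests were chosen with earlier results of these data known; roles were assigned by hand afterwards. For the background of calls, genes were filtered with filterByExpr and fitted with edgeR 4.0.16 (quasi-likelihood test, TMM, Benjamini-Hochberg adjusted p under 0.05) in R 4.3.3. DESeq2 1.42.0, other size factors and filters, a replicate block, other forms of the rule and leaving out each library were alternatives, and a smooth trend on GC content and length (mgcv 1.9.3) was added after seeing the data. The fit was tested on simulated data. Genes were named by rank (the 25 highest, and the 3 highest of each list with at least 2 members), by the 6 lowest and 6 highest shifts of shControl replicate 1 and by the edge of the list, together with the 5 highest entrants and SQLE; other members are named for what their products do, chosen after their values were seen. Some genes that these rules name are not reported here. With 12212378 to 14393292 counts per library, every member had at least 56 counts in each. Promoters came from RefSeq (GRCh38.p14).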

Additional observations from a re-analysis of the deposited data

How the results depend on the processing

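The number of genes called higher was 46, and 162 with DESeq2, 1433 with the trend on GC content and transcript length removed and 3004 with that and shControl replicate 1 left out. Of the members 37 were called higher, and 78, 97 and 99 in the same fits. Leaving out 1 library gave 4 to 1964 genes and 4 to 99 members called higher, with the highest values without shControl replicate 1 and at most 13 genes and 12 members without any other library. The members' median log2 fold change was 0.62, 0.58 with library size only, 0.66 and 0.67 with the GC and length adjustment (with and without shControl replicate 1), and 0.60 to 0.66 with 1 library left out. In the chromosome 1 stretch the median log2 fold change of the other 59 genes was 0.37. It was lowest, 0.28, without shControl replicate 1 and highest, 0.45, with the GC and length adjustment. These shifts were under the spread between libraries, 0.126. shControl replicate 1 itself widens that spread, so the comparison cannot show how far the median depends on that library.

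The members kept ranged from 43 to 87 with 1 library left out, with 845 genes meeting the rule in the full data and 947 to 2399 in these. The GC-adjusted CPM gave 2090 genes, and 2806 with 58 members kept without shControl replicate 1. Other forms of the rule kept 73 to 95 members.

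With a replicate block, 34 genes and 30 members were called higher. The numbers did not pair the samples: deviations of same-numbered libraries correlated at 0.138, -0.433 and 0.543. Totals of 12212378 to 14393292 counts left members near 10 CPM with 56 counts or more in each library, and 3 libraries a group limit every estimate of spread.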

Other observations

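The level limit kept out genes with higher ratios than most members. S1PR1, the receptor for sphingosine 1-phosphate, was at 6.19, 7.12 and 7.12 CPM in shSQLE and at 1.31, 2.71 and 2.75 CPM in shControl, a ratio of 3.02 on at least 16 counts in each library. It lies on the short arm of chromosome 1 but outside the stretch of raised genes. The adhesion gene AMIGO1, inside that stretch, had a ratio of 1.75 at 6.69 to 8.53 CPM in shSQLE. The histone genes H2BC9 and H2BC11, in the same cluster as the member histone genes, had ratios of 2.32 and 2.01 with at least 4 and 25 counts in each library. EDN1, which encodes the vasoconstrictor peptide endothelin 1, had a ratio of 2.18 with 9 to 38 counts. These genes were chosen after their values were seen.

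The 5 Mb window with the next highest median log2 fold change after the stretch was the tip of the short arm of chromosome 5, at 0.23 over 22 tested genes with no member, and it kept 0.22 without shControl replicate 1.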
